A study of Rattus norvegicus with 24 samples.

Results

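Liver RNA of rats kept in constant darkness and given L. reuteri (DL.reuteri rats) was compared with liver RNA of untreated control rats, gene by gene. The members of the comparison are the 16 libraries of these groups, 8 DL.reuteri and 8 control, out of 24 in the series, and the 11723 genes that reached at least 0.5 FPKM in 8 or more of them, out of 30958 rows in the table. FPKM count the fragments assigned to a gene relative to the length of its transcript and to all mapped fragments of the library. A further 9 rows that passed this filter were left out by the rule of the comparison.

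All rats were female Sprague-Dawley rats, sampled at 14 weeks of age after an overnight fast, with 1 library per rat. DL.reuteri rats lived in the dark for 24 h a day over 8 weeks and received L. reuteri, a lactic acid bacterium of the gut, at 100 mg per day by mouth. Darkness rats, the remaining 8 libraries, had the same lighting and received saline in place of the bacterium, and their values are given beside those of the comparison where useful. Control rats were in the dark for 12 h a day and received saline by mouth. DL.reuteri and control rats therefore differed both in lighting and in the bacterium, and these cannot be told apart here. Rats shared cages that the labels do not name, and every test took them as independent.

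As background, hepatocytes make cholesterol from acetyl units through the mevalonate pathway, turn it into bile acids, and export it with ABC transporters. When sterols in the membrane of the endoplasmic reticulum run low, SREBP-2 is released from its anchor and, together with the CCAAT-binding factor NF-Y, switches on the genes of synthesis and uptake. Unfolded protein in the same organelle activates ATF6, which with NF-Y reads the ER stress element. Unfolded protein in the cytosol activates HSF1, which reads the heat shock element. Much of liver metabolism also follows the circadian clock, whose activators Bmal1, Clock and Npas2 drive their own repressors and output factors such as Dbp.

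The promoters of 6 genes that stood out below are shown because they carry CCAAT, the ER stress element or the heat shock element. They are RefSeq sequences of the assembly GRCr8, from 250 bases before to 50 bases after the start of the gene, and not of Rnor_6.0, to which the reads had been mapped. In the first 3, genes of cholesterol synthesis, the capitals mark CCAAT or its reverse complement. The core CACNCCAC, close to the sterol element, was also searched in these 3 and was not found. In the next 2, genes of the ER stress response, they mark the ER stress element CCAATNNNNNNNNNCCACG on either strand. In the last, of the heat shock response, they mark 3 overlapping matches to the heat shock element GAANNTTCNNGAA.
Hmgcs1 (chr2:53382054-53382353, plus strand): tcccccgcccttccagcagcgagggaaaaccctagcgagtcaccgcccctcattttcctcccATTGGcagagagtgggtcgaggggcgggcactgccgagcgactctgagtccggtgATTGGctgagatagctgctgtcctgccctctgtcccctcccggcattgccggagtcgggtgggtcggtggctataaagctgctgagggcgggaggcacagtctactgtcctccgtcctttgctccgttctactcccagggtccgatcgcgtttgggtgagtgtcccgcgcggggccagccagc
Idi1 (chr17:66547475-66547774, minus strand): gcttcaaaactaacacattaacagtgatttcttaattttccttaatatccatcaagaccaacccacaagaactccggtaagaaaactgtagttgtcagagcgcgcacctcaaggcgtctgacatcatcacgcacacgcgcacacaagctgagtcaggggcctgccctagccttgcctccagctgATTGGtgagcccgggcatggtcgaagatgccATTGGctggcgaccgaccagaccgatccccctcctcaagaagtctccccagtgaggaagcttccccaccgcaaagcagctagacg
Msmo1 (chr16:29746863-29747162, plus strand): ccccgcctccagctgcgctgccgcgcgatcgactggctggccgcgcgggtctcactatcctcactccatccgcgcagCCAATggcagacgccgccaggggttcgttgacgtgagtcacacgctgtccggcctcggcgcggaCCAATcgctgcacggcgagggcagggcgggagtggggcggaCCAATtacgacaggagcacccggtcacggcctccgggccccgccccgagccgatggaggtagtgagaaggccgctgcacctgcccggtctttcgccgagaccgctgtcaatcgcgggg
Hsp90b1 (chr7:23012244-23012543, minus strand): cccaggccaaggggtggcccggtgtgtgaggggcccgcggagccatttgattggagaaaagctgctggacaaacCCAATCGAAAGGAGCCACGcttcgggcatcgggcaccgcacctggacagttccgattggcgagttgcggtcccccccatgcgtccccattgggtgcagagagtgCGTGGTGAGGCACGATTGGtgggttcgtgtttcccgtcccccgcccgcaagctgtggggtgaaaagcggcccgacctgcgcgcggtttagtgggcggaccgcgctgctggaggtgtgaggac
Creld2 (chr7:121789134-121789433, plus strand): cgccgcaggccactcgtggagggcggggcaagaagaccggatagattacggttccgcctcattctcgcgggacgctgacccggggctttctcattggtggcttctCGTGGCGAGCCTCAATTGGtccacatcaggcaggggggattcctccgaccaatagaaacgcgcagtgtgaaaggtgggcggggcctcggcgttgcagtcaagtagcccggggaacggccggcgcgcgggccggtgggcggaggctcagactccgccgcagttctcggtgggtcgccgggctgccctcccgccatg
Chordc1 (chr8:23650571-23650870, plus strand): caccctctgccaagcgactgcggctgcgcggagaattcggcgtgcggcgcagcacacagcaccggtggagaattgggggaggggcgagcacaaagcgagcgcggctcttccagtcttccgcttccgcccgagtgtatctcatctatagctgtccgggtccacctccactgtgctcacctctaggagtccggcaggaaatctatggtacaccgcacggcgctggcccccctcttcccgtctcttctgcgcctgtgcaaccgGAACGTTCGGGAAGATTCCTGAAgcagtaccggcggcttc

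Of 27457 rat promoters of this length, 37.7% held CCAAT on either strand, 0.0765% the ER stress element and 0.736% the heat shock element. Among the 8078 matched promoters of genes tested, from which the lists below come, these shares were 38.2%, 0.173% and 0.483%. CCAAT stood in 14 of the 18 promoters matched by symbol from the cholesterol list (77.8%). The share was similar in the ER list (13 of 17, 76.5%) and in the heat shock list (8 of 11, 72.7%). Every ER stress element also contains CCAAT. The ER stress element stood in 5 of 17 promoters of the ER list, those of Hspa5, Hsp90b1, Dnajc3, Creld2 and Xbp1. The heat shock element stood in 5 of 11 promoters of the heat shock list, those of Hspa8, Hsph1, Dnaja1, Hspd1 and Chordc1. The core CACNCCAC, close to the sterol element read by SREBP, stood in 3 of 18 cholesterol promoters, against 5.70% of all. These were Acat2, Ebp and Insig1, and not the cholesterol promoters shown. CCAAT stood in 37.4% of the 115 matched promoters of genes called higher without DL.reuteri 3 and in 61.7% of the 47 of genes called lower, against 38.2% of the 8078 of all genes tested. A match is a description of these letters in this window and not of binding.

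One library stood apart from the others. In DL.reuteri 3, transcripts of the mitochondrial genome made up 85.0% of the summed FPKM, against 18.8% to 50.8% in the other 7 DL.reuteri libraries and 21.0% to 52.6% in control libraries. Its 14 hepatocyte markers such as Alb and Ttr averaged 8.59 on the log2(FPKM + 1) scale, against 10.6 to 11.1 in the other DL.reuteri libraries and 10.5 to 11.1 in control libraries. It had 13901 genes above 0, fewer than any other library of the comparison. The median gene had an SD over rats of 0.45 on the log2 scale in DL.reuteri rats with this library and 0.33 without it, and of 0.29 in control rats. FPKM carry no counts, and the relative depth read from their smallest steps ran from 0.857 to 1.10 in DL.reuteri libraries and from 0.830 to 1.26 in control libraries, with 0.932 in DL.reuteri 3. The differences below are therefore given without this library, and those with all 16 libraries stand beside them or at the end of the paragraph. Adipocyte markers were highest in DL.reuteri 2, at a mean of 3.89 on the log2 scale, and in control 8, at 4.55, against 2.32 or less in the other 14 libraries.

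**Figure D1:**
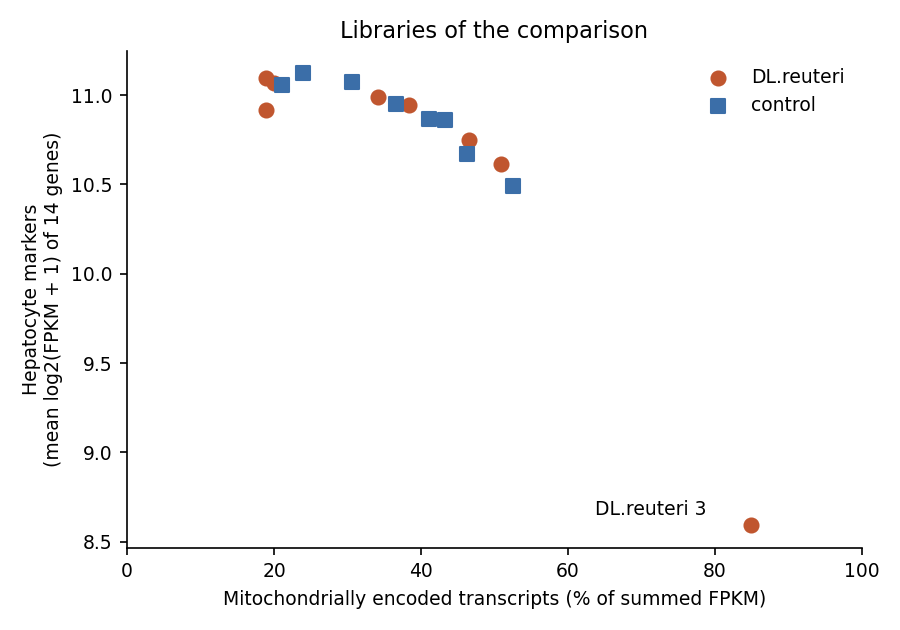
Each point is 1 library, a circle for DL.reuteri and a square for control rats, placed by the share of mitochondrially encoded transcripts in its summed FPKM (x axis, percent) and by the mean log2(FPKM + 1) of 14 hepatocyte markers (y axis). DL.reuteri 3 lies alone at 85.0% and 8.59, and the other 15 libraries of both groups overlap between 18.8% and 52.6%.

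Over all 16 libraries 1 gene passed the test, limma on log2(FPKM + 1) with the p-values adjusted over all genes by the Benjamini-Hochberg method and called under 0.05. It was higher in DL.reuteri rats (0.00853% of genes tested), and 0 genes were lower (0%), while at an unadjusted p under 0.05 691 genes lay higher (5.89%) and 675 lower (5.76%). Without DL.reuteri 3, 152 genes were higher (1.3%) and 67 were lower (0.572%), and at an unadjusted p under 0.05 the counts were 1762 (15%) and 643 (5.48%). The median gene then differed by 0.09 on the log2 scale, against 0.003 with all 16 libraries. The split between the directions moved with the scaling. Of the genes called without DL.reuteri 3, 69.4% were higher. After median-ratio rescaling of the libraries, which brought the median gene to 0.007, 34.0% were higher (87 higher and 169 lower). The share was 4.35% (1 higher and 22 lower) in a fit modelled on Ballgown, which added a library term. That term was the summed log2 expression of each library up to its upper quartile. The same fit used ordinary t-tests in place of moderated ones, so its counts cannot be assigned to the term alone. In that fit Ptpn9, Hmgcs1 and Pggt1b, described below, lost their calls (adjusted p = 0.089, 0.0903 and 0.0903). All 219 genes kept their direction when DL.reuteri 3 was put back, and 136 of the higher and 67 of the lower ones had an unadjusted p under 0.05 with it. They had been selected in 15 of the same 16 libraries, so this is a description and not separate support. Genes below are called higher or lower from the fit of 15 libraries, unless 16 are named. In bulk RNA, fewer cells of a type and less RNA per cell cannot be told apart.

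The genes that rose had low levels and modest changes. Their median in control rats was 3.37 FPKM, their median log2 difference was 0.60, with a range from 0.38 to 1.73, and 15 of the 152 reached 1. The genes that fell had a median of 33.0 FPKM in control rats and a median log2 difference of -0.63, from -2.60 to -0.40, and 11 of the 67 reached -1. The genes that rose spanned a median of 37.2 kb in the RefSeq annotation of GRCr8 and the genes that fell 9.6 kb, against 23.1 kb over all genes tested, for the 94.1%, 85.1% and 88.6% of each that matched by symbol. The part of gene length in the calls was not tested. In 37 of the 152 and 20 of the 67 no DL.reuteri library without DL.reuteri 3 overlapped the control libraries, and over all genes tested this held for 53 above (0.452%) and 27 below (0.230%).

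The counts depended on single libraries beyond DL.reuteri 3. With control 4 also left out, 3 genes were higher and 0 lower, and these were Ptpn9, Hmgcs1 and Pggt1b. Leaving out DL.reuteri 1, 2, 5, 6, 7 or 8 instead gave 64, 64, 36, 25, 41 or 14 higher and 32, 28, 19, 21, 20 or 6 lower genes. Leaving out control 1, 2, 5, 7 or 8 gave 59, 10, 25, 11 or 66 higher and 19, 5, 14, 9 or 45 lower genes. The counts grew to 514 and 154 without DL.reuteri 4 and to 251 and 65 without control 3. They were 155 and 69 without control 6. For the called genes described below, the number of these 15 fits in which the call held is given. An adjusted p depends on all genes tested, so this number also moves with the counts above. It does not by itself measure how far a gene's own difference rests on 1 library.

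**Figure D2:**
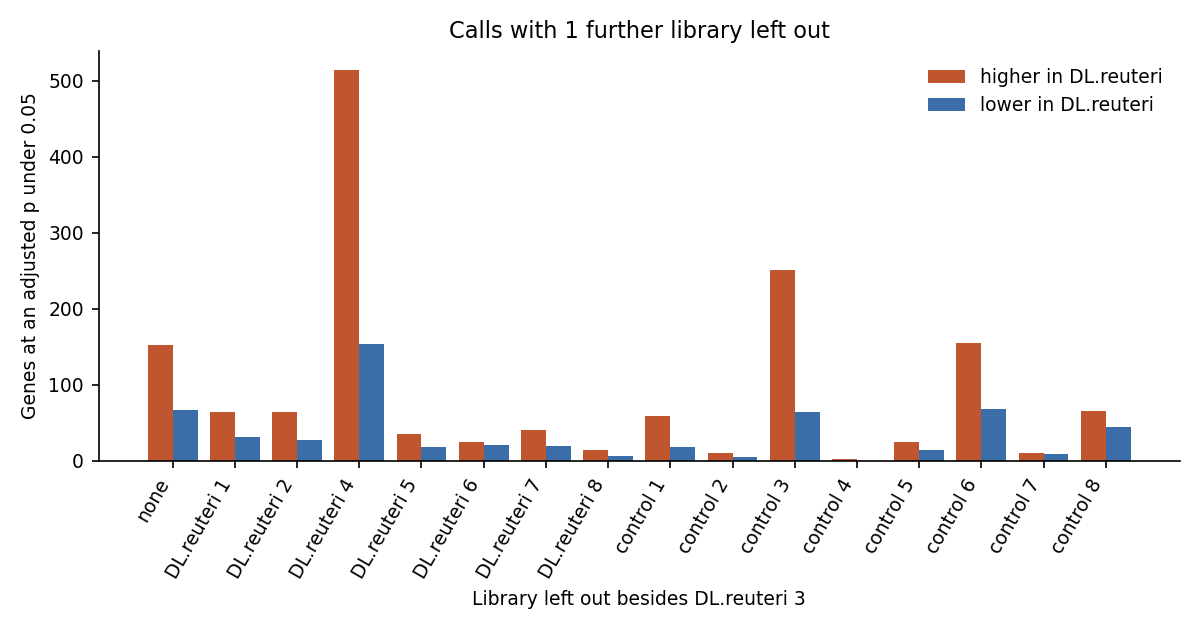
Bars show the number of genes at an adjusted p under 0.05 that were higher (left bar of each pair) or lower (right bar) in DL.reuteri than in control rats, with DL.reuteri 3 and the named further library left out. The first pair, with none further left out, stands at 152 and 67. The counts reach 514 and 154 without DL.reuteri 4 and drop to 3 and 0 without control 4.

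The gene that passed with all 16 libraries was Ptpn9, which encodes a tyrosine phosphatase (MEG2) that carries a lipid-binding domain. It had 3.33 FPKM in DL.reuteri 3 and 3.99 to 7.5 (median 5.90) in the other 7 DL.reuteri libraries, against 1.32 to 3.16 (median 1.85) in control libraries. All 8 DL.reuteri libraries lay above all 8 control libraries. Over all genes tested this held for 5 genes (0.0427%), and 27 (0.230%) lay wholly below. The log2 difference was 1.07 (SE 0.16, adjusted p = 0.036) with 16 libraries and 1.14 (SE 0.15, adjusted p = 0.0105) without DL.reuteri 3. The exact two-sided permutation test over 12870 splits of the rats gave its smallest possible p of 1.55e-04. Any gene without overlap gets that p. Ptpn9 was picked by its small p in the same libraries, so the exact p is not separate support. With 16 libraries the call held in 5 of the 16 fits that left out 1 library, those without DL.reuteri 1, 3 or 4 or control 3 or 6, with adjusted p from 0.0105 to 0.133, but once DL.reuteri 3 was left out it held in all 15 such fits. Darkness rats lay between the groups, with 1.71 to 5.38 FPKM (median 4.25).

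Several low-level genes followed. Tbx3, a transcription factor active in pericentral hepatocytes, had 2.54 FPKM in DL.reuteri 3 and 1.87 to 4.51 (median 3.46) in the other DL.reuteri libraries, against 0.504 to 2.55 (median 1.05) in control libraries, where only control 2 lay above DL.reuteri 3 and 7. It was higher by 0.99 (adjusted p = 0.0264, held in 12 of 15 fits), and by 0.95 with 16 libraries (adjusted p = 0.0829). Zfp146, a zinc finger protein, had 6.58 to 13.4 FPKM (median 9.82) in the 7 DL.reuteri libraries, against 3.53 to 7.01 (median 5.07) in control libraries, and was higher by 0.81 (held in 11 of 15 fits). Trpm7, a magnesium channel with a kinase domain, had 7.11 to 8.94 FPKM (median 8.33) in the 7 DL.reuteri libraries and 4.09 in DL.reuteri 3, against 3.71 to 6.70 (median 4.55) in control libraries. It was higher by 0.69 (SE 0.12, adjusted p = 0.0219, held in 14 of 15 fits) with no overlap once DL.reuteri 3 was left out. Pggt1b, the catalytic subunit that attaches geranylgeranyl lipids to proteins, had 3.49 to 5.60 FPKM (median 4.78) in these 7 libraries, against 1.73 to 3.35 (median 2.49) in control libraries. Its log2 difference was 0.73 (adjusted p = 0.0219), and the call held in all 15 fits, but in DL.reuteri 3 it stood at 1.52 FPKM, below every control library. Zfp146, Trpm7 and Pggt1b differed by 0.75, 0.59 and 0.58 over all 16 libraries (adjusted p from 0.119 to 0.25).

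A further 3 genes named by the size of their p-values code for proteins of membrane trafficking, and they did not all differ in 1 direction. Mtmr6, a lipid phosphatase of endosomes, had 4.24 to 5.29 FPKM (median 4.84) in the 7 DL.reuteri libraries, against 2.28 to 3.50 (median 2.90) in control libraries. Stx12, an endosomal syntaxin, had 9.0 to 14.8 FPKM (median 10.3) there, against 5.15 to 7.42 (median 6.93) in control libraries. Neither overlapped, and the log2 differences were 0.57 and 0.66 (adjusted p = 0.0219 and 0.0262, held in 14 and 13 of 15 fits), while DL.reuteri 3, at 2.43 FPKM in both genes, lay within the control range of Mtmr6 and below that of Stx12. Napa, which recycles the SNARE proteins of membrane fusion, went the other way: 43.7 to 58.5 FPKM (median 54.5) in the 7 DL.reuteri libraries and 32.8 in DL.reuteri 3, against 71.5 to 88.0 (median 79.1) in control libraries. It was lower by 0.57 on the log2 scale (SE 0.09, adjusted p = 0.0219, held in 14 of 15 fits), and no library overlapped. Mtmr6, Stx12 and Napa differed by 0.48, 0.44 and -0.65 over all 16 libraries (adjusted p from 0.131 to 0.477).

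Some genes of cholesterol synthesis rose. Of 26 genes tested from the list of synthesis and uptake, 4 were called higher and 0 lower, against 1.3% and 0.572% of all genes. Before adjustment 14 members lay higher and 1 lower at p under 0.05, against 15% and 5.48% of all genes. The median of the list was 0.39 without DL.reuteri 3, against 0.09 over all genes, and 0.23 with it. With all 16 libraries 5 members lay higher and 1 lower at that unadjusted threshold, against 5.89% and 5.76% of all genes. Over the 15 fits with a further library left out this median ran from 0.34 to 0.48. The list, like the others below, was chosen with earlier results of these data known, so its count is a description, and some of the genes named from it were picked after their values were seen.

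Hmgcs1, which makes HMG-CoA at the entry to the pathway and whose promoter is shown above, had 68.8 FPKM in DL.reuteri 3 and 132 to 402 (median 337) in the other 7 libraries, against 72.7 to 162 (median 85.7) in control libraries. Apart from DL.reuteri 3, the lowest of all 16, only DL.reuteri 4 fell within the control range, and the others stood at 252 or more. The log2 difference was 1.57 (SE 0.23, adjusted p = 0.013, held in all 15 fits), and 1.31 with all 16 libraries (adjusted p = 0.138). Idi1, which isomerizes the activated isoprene unit, had 25.7 to 108 FPKM (median 73.4) in the 7 DL.reuteri libraries and 28.6 in DL.reuteri 3, against 18.3 to 36.0 (median 27.6) in control libraries. Only DL.reuteri 3 and 4 lay among the controls, and the difference was 1.36 (adjusted p = 0.0267, held in 10 of 15 fits). Sqle, the rate-limiting squalene epoxidase, had 13.2 to 55.2 FPKM (median 38.1) in these 7 libraries and 7.25 in DL.reuteri 3, against 9.93 to 23.1 (median 13.0) in control libraries, and was higher by 1.3 (adjusted p = 0.0292, held in 7 of 15 fits). Msmo1, a sterol methyl oxidase late in the pathway, had 39.8 to 163 FPKM (median 124) there and 24.1 in DL.reuteri 3, against 24.7 to 69.9 (median 31.8) in control libraries, and was higher by 1.44 (adjusted p = 0.0299, held in 9 of 15 fits). Idi1, Sqle and Msmo1 differed by 1.20, 1.03 and 1.19 over all 16 libraries (adjusted p from 0.132 to 0.289).

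In all 4 genes DL.reuteri 4 had the lowest level of the 7 libraries and DL.reuteri 7 or 8 the highest, and control 6 was the highest control. Further enzymes had positive differences that did not pass the test. Cyp51, the lanosterol demethylase, differed by 1.0 (adjusted p = 0.105), and Lss, which closes the sterol rings, by 0.60 (adjusted p = 0.0592). Insig1, which holds SREBP in the endoplasmic reticulum and is itself a SREBP target, was the member lower at an unadjusted p under 0.05, and 4 of the 26 had a negative difference. It had 163 to 283 FPKM (median 211) in the 7 DL.reuteri libraries, against 231 to 401 (median 305) in control libraries, a difference of -0.50 (adjusted p = 0.0724). Cyp51, Lss and Insig1 differed by 0.60, 0.53 and -0.48 over all 16 libraries (adjusted p from 0.257 to 0.661).

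Genes that move cholesterol on were changed in both directions. Cyp7a1, the rate-limiting enzyme of bile acid synthesis, had 57.3 FPKM in DL.reuteri 3 and 51.4 to 166 (median 137) in the other 7 libraries, against 8.95 to 80.7 (median 30.1) in control libraries. It was higher by 1.73 (SE 0.42, adjusted p = 0.0445, held in 4 of 15 fits) and by 1.63 with 16 libraries (adjusted p = 0.159), and DL.reuteri 2, 3, 4 and 6 lay within the control range. Cyp8b1, which adds the 12-alpha hydroxyl group that makes cholic acid, had 66.7 FPKM in DL.reuteri 3 and 130 to 314 (median 216) in the others, against 27.0 to 105 (median 69.7) in control libraries. Without DL.reuteri 3 no library overlapped, the log2 difference was 1.59 (SE 0.26, adjusted p = 0.0219, held in 14 of 15 fits), and it was 1.39 with all 16 (adjusted p = 0.119). Npc1, which releases cholesterol from lysosomes, had 20.6 to 30.3 FPKM (median 23.7) in the 7 DL.reuteri libraries, against 10.2 to 20.1 (median 16.1) in control libraries, and Osbp, which carries cholesterol between membranes, had 9.73 to 17.6 (median 11.2), against 6.84 to 8.67 (median 7.34). Both separated the groups once DL.reuteri 3 was left out and were higher by 0.62 and 0.59 (held in 4 and 7 of 15 fits). Npc1 and Osbp differed by 0.53 and 0.46 over all 16 libraries (adjusted p = 0.272 and 0.339).

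Abcg5 and Abcg8, the paired subunits of the transporter that exports sterols into bile, fell. Abcg5 had 5.02 FPKM in DL.reuteri 3 and 1.44 to 2.74 (median 1.99) in the others, against 1.74 to 8.98 (median 5.34) in control libraries, a log2 difference of -1.02 (adjusted p = 0.0411, held in 4 of 15 fits). Abcg8 had 0.228 to 0.888 FPKM (median 0.683) in the 7 DL.reuteri libraries and 1.52 in DL.reuteri 3, against 0.670 to 4.0 (median 1.60) in control libraries, a difference of -0.89 (adjusted p = 0.0445, held in 2 of 15 fits). Without DL.reuteri 3, the highest DL.reuteri library in both genes, only control 5 lay among the DL.reuteri libraries. Over the 19 genes of bile acid synthesis and transport, 2 were called higher and 2 lower, against 1.3% and 0.572% of all genes. The list median was 0.07, below the 0.09 of all genes, and -0.10 with DL.reuteri 3. Abcg5 and Abcg8 differed by -0.89 and -0.81 over all 16 libraries (adjusted p = 0.207 and 0.18).

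**Figure D3:**
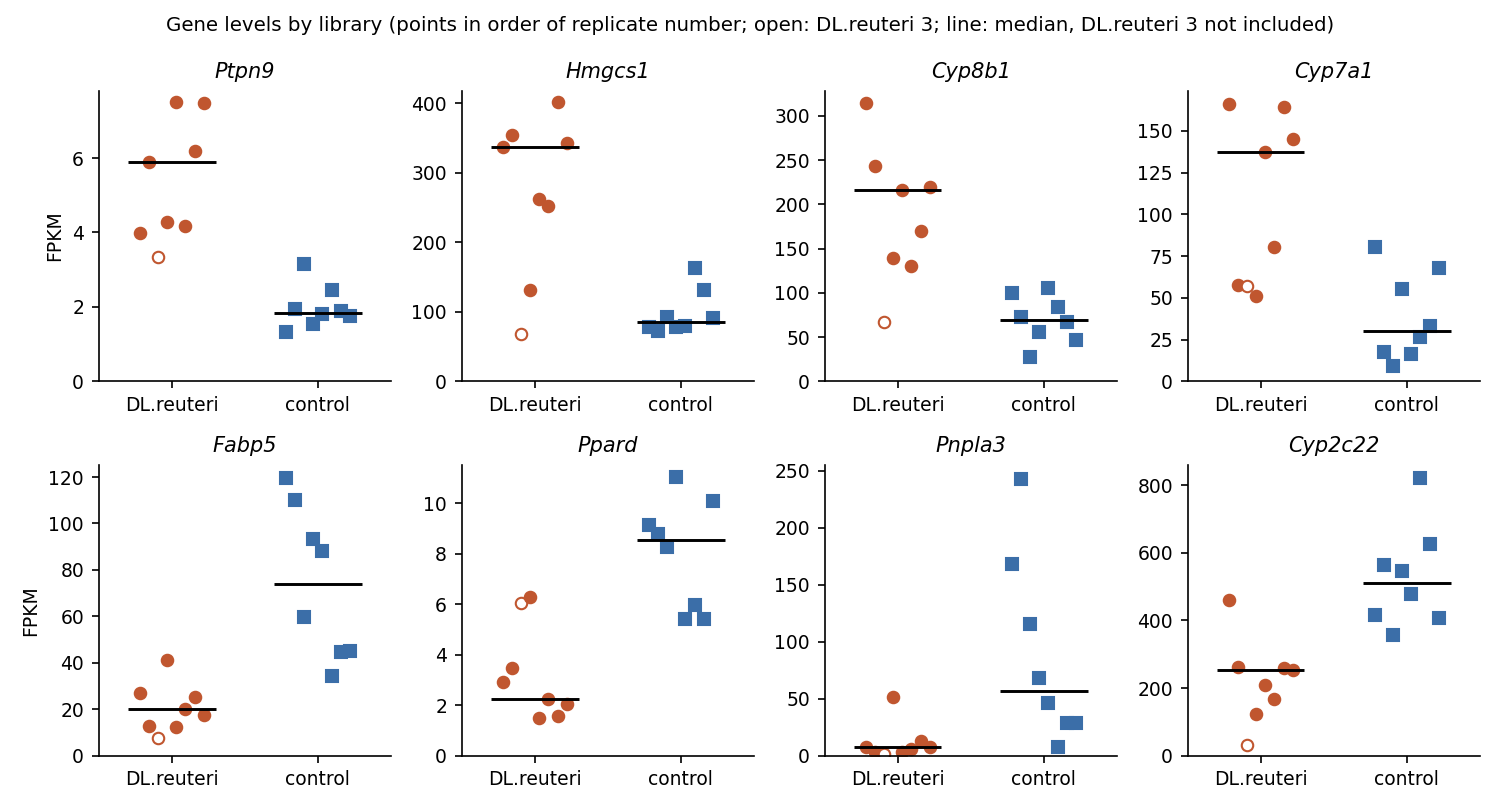
Points show FPKM by library for 8 genes, DL.reuteri (circles) left of control (squares), in the order of replicate number, with DL.reuteri 3 as an open circle and the median of the other libraries as a line. Ptpn9, Hmgcs1, Cyp8b1 and Cyp7a1 lie higher in DL.reuteri rats, and Fabp5, Ppard, Pnpla3 and Cyp2c22 lie lower. Only Ptpn9 separates all 16 libraries, and the open circle of Hmgcs1, Cyp8b1 and Cyp7a1 lies within or below the control range.

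Among chaperones of the endoplasmic reticulum 1 gene rose and others had positive differences that did not pass. Of 19 genes of the ER and amino acid stress list, 1 was called higher and 0 lower, and 11 were higher and 2 lower at an unadjusted p under 0.05. Over all genes 1.3% were called higher, and 15% were higher and 5.48% lower at that unadjusted threshold. The list median was 0.45 without DL.reuteri 3 and 0.26 with it, and 0.34 to 0.52 with a further library left out. In the fit with the library term, modelled on Ballgown, it was 0.18, against 0.006 over all genes. The 11 were Hspa5, Hsp90b1, Pdia4, Dnajb9, Dnajc3, Sdf2l1, Creld2, Xbp1, Atf4, Manf and Hyou1. The lower 2 were Chac1, an enzyme that breaks down glutathione, and Sesn2, a stress-induced inhibitor of mTORC1 signalling, with differences of -1.70 and -0.85 (adjusted p = 0.128 and 0.126).

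Hsp90b1, the HSP90 of the endoplasmic reticulum, had 25.6 FPKM in DL.reuteri 3 and 103 to 372 (median 278) in the other 7 libraries, against 69.9 to 174 (median 109) in control libraries. Only DL.reuteri 3, 4 and 1, with the last at 170, lay at or below the highest control, and the difference was 1.09 (SE 0.25, adjusted p = 0.0409, held in 4 of 15 fits). Hspa5, its HSP70 partner and the sensor of unfolded protein, had 54.7 FPKM in DL.reuteri 3 and 132 to 792 (median 398) in the others, against 105 to 389 (median 189) in control libraries, which overlapped, and differed by 0.92 (adjusted p = 0.133). Creld2, an ER disulfide isomerase, reached 110, 125, 148 and 182 FPKM in DL.reuteri 8, 5, 7 and 6, with 8.82 to 28.4 in DL.reuteri 1 to 4, against 12.0 to 36.1 (median 25.7) in control libraries. The first 4 lay above every control and the last 4 did not, and the difference of 1.47 missed the test (adjusted p = 0.0853). Hsp90b1, Hspa5 and Creld2 differed by 0.69, 0.57 and 1.12 over all 16 libraries (adjusted p from 0.42 to 0.661).

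Some ER genes outside the list rose too. Ero1lb, an oxidase that drives disulfide bonds, had 10.9 FPKM in DL.reuteri 3 and 16.8 to 42.4 (median 24.7) in the others, against 6.71 to 17.9 (median 10.9) in control libraries. It was higher by 1.25 (SE 0.21, adjusted p = 0.0219, held in 14 of 15 fits), with only control 3 and DL.reuteri 1 overlapping apart from DL.reuteri 3. Its paralog Ero1l had 3.45 to 9.42 FPKM (median 6.99) in the 7 DL.reuteri libraries and 0.547 in DL.reuteri 3, against 1.80 to 3.90 (median 3.05) in control libraries, and was higher by 0.90 (adjusted p = 0.0346, held in 5 of 15 fits). Sel1l, of the complex that returns misfolded protein to the cytosol, and Ficd, which modifies Hspa5, were higher by 0.71 and 1.01 (adjusted p = 0.037 and 0.0409, held in 4 and 5 of 15 fits). Ero1lb, Ero1l, Sel1l and Ficd differed by 1.10, 0.63, 0.51 and 0.84 over all 16 libraries (adjusted p from 0.119 to 0.427).

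Some cytosolic chaperones rose. Of 12 tested heat shock and cold-inducible genes, 2 were called higher and 0 lower, 5 were higher and 1 lower at an unadjusted p under 0.05, against 1.3% called higher and 15% and 5.48% of all genes at that unadjusted threshold. The median was 0.37, against 0.14 with DL.reuteri 3. Chordc1, a co-chaperone of HSP90, had 2.58 FPKM in DL.reuteri 3 and 7.29 to 19.6 (median 16.6) in the others, against 4.47 to 11.6 (median 6.69) in control libraries, and was higher by 0.88 (adjusted p = 0.048, held in 4 of 15 fits). Dnajb1, an HSP40, had 6.21 to 14.8 FPKM (median 12.2) in the 7 DL.reuteri libraries and 1.54 in DL.reuteri 3, against 4.08 to 8.68 (median 6.22) in control libraries, and was higher by 0.78 (adjusted p = 0.0411, held in 3 of 15 fits). In both genes DL.reuteri 2 and 5 to 8 lay above every control and DL.reuteri 4 among them. Hsph1, an HSP110, differed by 0.92 (adjusted p = 0.0997), and Bag3, which couples HSP70 to autophagy, by 0.53 (adjusted p = 0.0853). Cirbp, an RNA-binding protein induced by cold, differed by -0.35 (adjusted p = 0.182). Chordc1, Dnajb1, Hsph1, Bag3 and Cirbp differed by 0.63, 0.50, 0.63, 0.43 and -0.39 over all 16 libraries (adjusted p from 0.366 to 0.545).

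Some genes of lipid storage and transport fell, while the list as a whole did not move one way. Of 24 genes tested for triglyceride assembly and lipid droplets, 2 were called lower (Pnpla3 and Cideb) and 0 higher, against 0.572% and 1.3% of all genes. At an unadjusted p under 0.05, 3 were lower and 1 higher, against 5.48% and 15% of all genes. The median was 0.08 without DL.reuteri 3 and -0.04 with it, and 15 members had a positive and 9 a negative difference. Fabp5, a fatty acid binding protein, had 7.81 FPKM in DL.reuteri 3 and 12.3 to 41.3 (median 20.2) in the other 7 libraries, against 34.1 to 120 (median 73.9) in control libraries. The lowest control, control 6, and the highest DL.reuteri library, DL.reuteri 4, were the only ones to overlap. The log2 difference was -1.67 (SE 0.30, adjusted p = 0.022, held in 13 of 15 fits), and -1.83 with all 16 (adjusted p = 0.0747). Pnpla3, a lipase of lipid droplets, had the largest difference of all genes that fell, -2.60 (SE 0.65, adjusted p = 0.0488, held in 2 of 15 fits). It had 51.3 FPKM in DL.reuteri 4 and 1.59 to 13.1 in the other 7 DL.reuteri libraries, against 7.34 to 243 (median 57.2) in control libraries, where only control 6 fell within the lower DL.reuteri range. Cideb, which loads lipid onto VLDL, had 61.6 to 82.4 FPKM (median 76.7) in the 7 DL.reuteri libraries and 30.9 in DL.reuteri 3, against 83.0 to 114 (median 101) in control libraries, with no overlap and a difference of -0.42 (adjusted p = 0.0439, held in 3 of 15 fits). Tmem86b, the liver enzyme that breaks down lysoplasmalogens, had 57.5 to 74.4 FPKM (median 59.1) in these 7 and 14.3 in DL.reuteri 3, against 83.4 to 129 (median 100) in control libraries, and was lower by 0.67 on the log2 scale (adjusted p = 0.0219, held in 14 of 15 fits). Pnpla3, Cideb and Tmem86b differed by -2.83, -0.57 and -0.93 over all 16 libraries (adjusted p from 0.124 to 0.306).

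Of 17 genes on the list of fatty acid synthesis, 1 was called lower, against 0.572% of all genes. It was Pnpla3, the lipase already counted above, and no other member was called. At an unadjusted p under 0.05, 0 lay higher and 4 lower, against 15% and 5.48% of all genes. The median was -0.36, and -0.41 with DL.reuteri 3. Scd1, the desaturase that makes oleate, had 42.0 to 410 FPKM (median 89.3) in the 7 DL.reuteri libraries and 10.7 in DL.reuteri 3, against 104 to 652 (median 306) in control libraries. The groups overlapped through DL.reuteri 1, 7 and 8, and the difference of -1.43 did not pass (adjusted p = 0.119). Me1, which supplies NADPH, differed by -0.63 (adjusted p = 0.0639), and Lpin2, a phosphatidate phosphatase of triglyceride synthesis, by -1.03 (adjusted p = 0.0562), with control 5 at 2.17 FPKM and the other controls at 6.59 or more. The 28 genes of fatty acid oxidation and ketogenesis had a median of -0.03 without DL.reuteri 3 and -0.27 with it, and 0 calls in either direction, with 1 gene higher and 0 lower at an unadjusted p under 0.05. Scd1, Me1 and Lpin2 differed by -1.84, -0.85 and -1.06 over all 16 libraries (adjusted p from 0.132 to 0.26).

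Ppard, a nuclear receptor for fatty acids, fell with Fabp5, which is known to deliver ligands to it in other cells. It had 6.05 FPKM in DL.reuteri 3 and 1.51 to 6.30 (median 2.26) in the others, against 5.4 to 11.0 (median 8.52) in control libraries. DL.reuteri 3 and 4 lay among the lower controls and the other 6 libraries, at 3.47 or less, below all of them. The log2 difference was -1.28 (SE 0.22, adjusted p = 0.0219, held in 14 of 15 fits), and -1.16 with all 16 (adjusted p = 0.0993). Pnrc1, a coactivator of nuclear receptors, had 38.9 to 71.9 FPKM (median 46.3) in these 7 libraries and 59.6 in DL.reuteri 3, against 57.0 to 112 (median 100.2) in control libraries, and was lower by 0.90 on the log2 scale (adjusted p = 0.0219, held in 14 of 15 fits). Pnrc1 differed by -0.86 over all 16 libraries (adjusted p = 0.119).

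Some enzymes of detoxification fell. Of 24 drug-metabolizing genes tested, 0 were called higher and 4 lower, 2 were higher and 6 lower at an unadjusted p under 0.05. Over all genes 0.572% were called lower, and 15% were higher and 5.48% lower at that unadjusted threshold. The median was -0.15, and -0.31 with DL.reuteri 3. Gsta2 and Gstm1, glutathione transferases, had 276 to 423 (median 306) and 268 to 505 FPKM (median 390) in the 7 DL.reuteri libraries, against 429 to 652 (median 543) and 529 to 881 (median 667) in control libraries. Neither overlapped, also with DL.reuteri 3 at 60.5 and 113, and the differences were -0.67 and -0.71 (adjusted p = 0.0267 and 0.0332, each held in 10 of 15 fits). Cyp2c22, a P450 of rat liver, had 122 to 461 FPKM (median 252) in the 7 DL.reuteri libraries and 33.0 in DL.reuteri 3, against 358 to 821 (median 512) in control libraries, with only DL.reuteri 1 within the control range, and was lower by 1.15 on the log2 scale (adjusted p = 0.0331, held in 8 of 15 fits). Gsta2, Gstm1 and Cyp2c22 differed by -0.98, -0.94 and -1.49 over all 16 libraries (adjusted p from 0.172 to 0.275).

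Cyp2c13, a P450 that male rats express far more than females, had 0.662 to 2.25 FPKM (median 0.899) in the 7 DL.reuteri libraries and 1.38 in DL.reuteri 3, against 2.05 to 8.12 (median 3.15) in control libraries. The difference was -1.11 (adjusted p = 0.0292, held in 9 of 15 fits), and control 3 was the highest library. Its level is low and close relatives of the family can share reads, and the table also holds a second row under this symbol that was below the filter. Cyp2c11 and Cyp3a2, also male-predominant, were highest in the same control library, at 7.54 and 8.54 FPKM, against 2.58 or less in every other library of the comparison. They differed by -0.84 and -0.71 (adjusted p = 0.132 and 0.227). Cyp2c13, Cyp2c11 and Cyp3a2 differed by -1.09, -0.83 and -0.74 over all 16 libraries (adjusted p from 0.0829 to 0.382).

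Nuclear genes of the respiratory chain had a negative median difference. Of 25 subunits on the list 0 were called, 0 were higher and 9 lower at an unadjusted p under 0.05, against 5.48% of all genes, and the median was -0.19. With DL.reuteri 3 it was -0.48. Ndufs8, a subunit of complex I outside the list, had 45.1 to 62.7 FPKM (median 54.0) in the 7 DL.reuteri libraries and 10.2 in DL.reuteri 3, against 70.4 to 83.2 (median 79.0) in control libraries. It was lower by 0.52 on the log2 scale without overlap (adjusted p = 0.0267, held in 10 of 15 fits). Ndufb2, also of complex I, was lower by 0.54 (adjusted p = 0.0332, held in 6 of 15 fits), and Atp5i, of the ATP synthase, by 0.47 (adjusted p = 0.0467, held in 2 of 15 fits). The 13 transcripts of the mitochondrial genome itself had a median of -0.31 without DL.reuteri 3 and -0.06 with it, with 0 genes at an unadjusted p under 0.05 in either fit and widely overlapping groups. Cat, the catalase, had 547 to 872 FPKM (median 663) in the 7 DL.reuteri libraries and 403 in DL.reuteri 3, against 889 to 1066 (median 975) in control libraries, and was lower by 0.47 with no overlap (adjusted p = 0.048, held in 2 of 15 fits). The mitochondrial share of the libraries was 18.8% to 20.0% in DL.reuteri 1, 2 and 8 and 34.2% or more in the other DL.reuteri libraries. With that share as a covariate the median of the 25 subunits was -0.23, and 877 genes were called higher and 362 lower. Ndufs8, Ndufb2, Atp5i and Cat differed by -0.80, -0.85, -0.84 and -0.57 over all 16 libraries (adjusted p from 0.311 to 0.394).

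A pair of genes of iron sensing rose, both outside the list of iron and oxidative stress. Of the 19 genes tested from that list 1 was called lower, Cat, and 0 higher, against 0.572% and 1.3% of all genes. Before adjustment 2 members lay higher and 3 lower at p under 0.05, against 15% and 5.48% of all genes. The list median was 0.004 without DL.reuteri 3 and -0.12 with it. Ireb2, which encodes an iron regulatory protein that binds the messenger RNA of ferritin, had 6.67 FPKM in DL.reuteri 3 and 7.61 to 14.5 (median 11.4) in the others, against 4.53 to 8.36 (median 5.64) in control libraries. Only DL.reuteri 3 and 4 lay within the control range. It was higher by 0.83 (SE 0.14, adjusted p = 0.0219, held in 14 of 15 fits). Fbxl5, which marks that protein for breakdown when iron is plentiful, had 8.98 to 13.8 FPKM (median 9.96) in the 7 DL.reuteri libraries and 2.55 in DL.reuteri 3, against 3.90 to 7.89 (median 6.47) in control libraries, with no overlap apart from DL.reuteri 3 and a difference of 0.67 (adjusted p = 0.0331, held in 9 of 15 fits). Fth1, the ferritin heavy chain, differed by -0.38 (adjusted p = 0.0924), and Hamp, the hormone that closes iron export, by -0.86 (adjusted p = 0.163), with 685 to 3823 FPKM in the 7 DL.reuteri libraries, against 1409 to 3636 in control libraries. Ireb2, Fbxl5, Fth1 and Hamp differed by 0.74, 0.47, -0.73 and -1.10 over all 16 libraries (adjusted p from 0.119 to 0.445).

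Hnf4a, Klb, Lepr and Gpt2 also rose, and the last 3 were named after their values were seen. Hnf4a, the nuclear receptor that maintains hepatocyte identity, had 83.3 FPKM in DL.reuteri 3 and 90.9 to 161 (median 134) in the others, against 66.6 to 98.7 (median 83.5) in control libraries, and was higher by 0.61 (adjusted p = 0.0409, held in 4 of 15 fits). DL.reuteri 3 and 4 alone overlapped the controls. Klb, the co-receptor through which FGF19 and FGF21 signal in hepatocytes, had 2.83 to 8.84 FPKM (median 5.26) in the 7 DL.reuteri libraries, against 1.61 to 3.35 (median 2.61) in control libraries, and was higher by 0.87 (adjusted p = 0.0409, held in 4 of 15 fits). Lepr, the leptin receptor, was highest in DL.reuteri 1, 2 and 8, at 5.14 to 6.09 FPKM, against 0.927 to 1.95 in control libraries, and was higher by 0.82 over the 7 libraries (adjusted p = 0.0488, held in 2 of 15 fits). Gpt2, a mitochondrial alanine aminotransferase, was higher by 1.06 (adjusted p = 0.0409, held in 3 of 15 fits). Of 19 genes of the insulin and IGF axis 0 were called, and the median was 0.13 without DL.reuteri 3 and -0.08 with it. Foxo1, a transcription factor of fasting, and Pik3r1, a regulatory subunit of PI3 kinase, differed by 0.51 and 0.53 (adjusted p = 0.0647 and 0.0588), and Irs2, which links the insulin receptor to that kinase, by -1.01 (adjusted p = 0.236). Hnf4a, Klb, Lepr, Gpt2, Foxo1, Pik3r1 and Irs2 differed by 0.53, 0.77, 0.67, 0.89, 0.39, 0.44 and -1.10 over all 16 libraries (adjusted p from 0.203 to 0.403).

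Clock genes had a negative median difference. Of 12 core clock genes tested 1 was called lower and 0 higher, against 0.572% and 1.3% of all genes. At an unadjusted p under 0.05, 4 were lower and 1 higher, against 5.48% and 15% of all genes. The median was -0.27, and -0.28 with DL.reuteri 3. Npas2, a clock activator, had 4.05 to 16.3 FPKM (median 6.50) in the 7 DL.reuteri libraries, against 9.05 to 19.3 (median 12.1) in control libraries, and the repressors Cry1 and Cry2 had medians of 2.47 and 7.20, against 4.51 and 9.45. Their differences of -0.84, -0.59 and -0.41 did not pass (adjusted p = 0.0701, 0.0882 and 0.0924). Npas2, Cry1 and Cry2 differed by -0.72, -0.71 and -0.47 over all 16 libraries (adjusted p from 0.212 to 0.312).

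Output factors of the clock split the DL.reuteri libraries among themselves. Dbp, a transcription factor driven by the clock, reached 11.1, 7.82 and 13.9 FPKM in DL.reuteri 5, 6 and 7, with 0.493 to 1.58 in the other 5 DL.reuteri libraries, against 0.677 to 1.76 (median 0.913) in control libraries. Per3, a clock repressor, had 6.44, 4.27 and 6.09 FPKM in the same libraries and 0.146 to 1.22 in the other 5, against 0.246 to 2.42 (median 0.47) in control libraries. Per2, another repressor, had 18.7, 9.32 and 11.0 FPKM there and 0.726 to 3.91 in the other 5, against 2.01 to 9.08 (median 4.43) in control libraries. The 3 genes were thus above every control library in DL.reuteri 5, 6 and 7 and within or below the control range in the rest. The differences over the 7 libraries were 1.09, 0.92 and -0.05 on the log2 scale (adjusted p = 0.183, 0.165 and 0.969), and none passed. In the 8 darkness libraries Dbp stayed between 0.775 and 1.16 FPKM. The hour of sampling is not given per rat in the sources used here. Dbp, Per3 and Per2 differed by 0.90, 0.74 and -0.16 over all 16 libraries (adjusted p from 0.45 to 0.923).

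**Figure D4:**
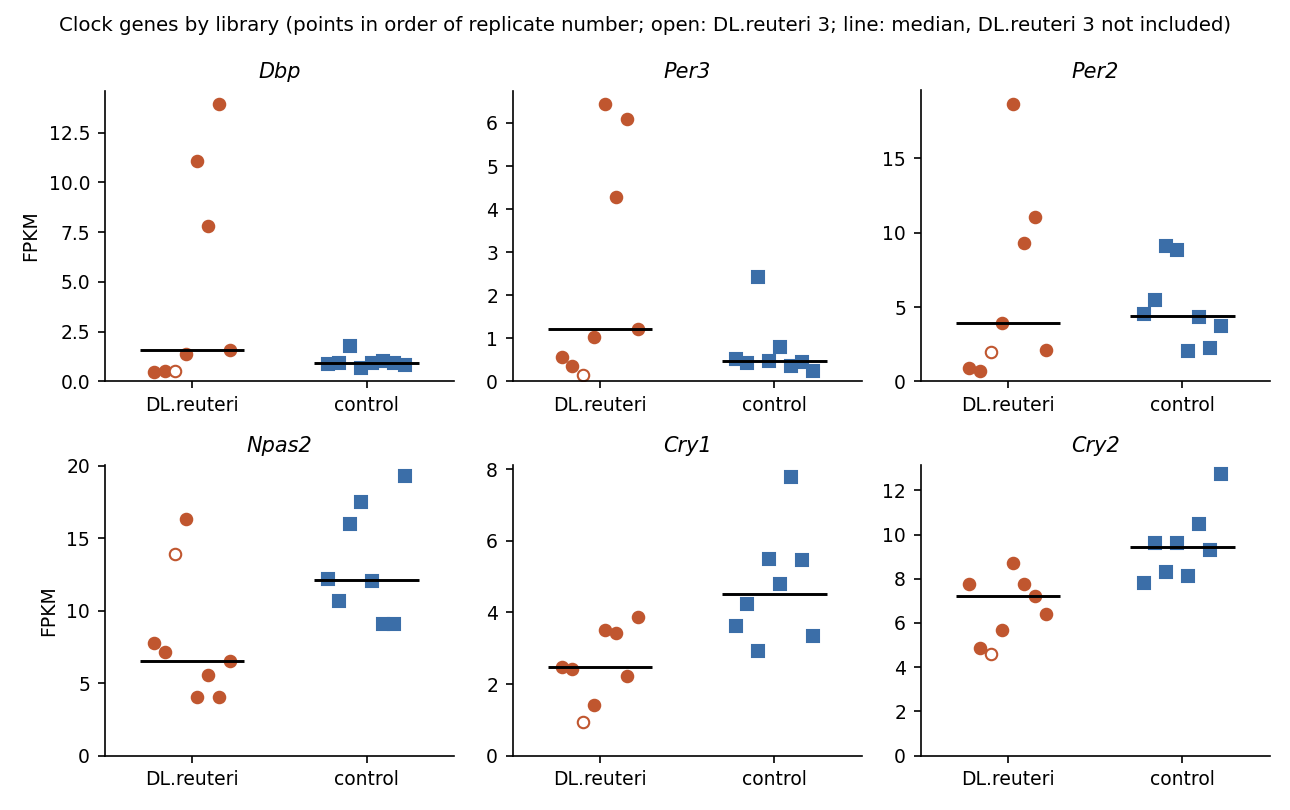
Points show FPKM by library for 6 clock genes, DL.reuteri (circles) left of control (squares), in the order of replicate number, with DL.reuteri 3 as an open circle and the median of the other libraries as a line. For Dbp, Per3 and Per2 the libraries DL.reuteri 5, 6 and 7 lie above all others, with Dbp at 7.82 to 13.9 FPKM, and for Npas2, Cry1 and Cry2 most DL.reuteri libraries lie below the control median.

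Immediate early genes had a negative median difference. Of 18 immediate early genes 1 was called lower, against 0.572% of all genes. At an unadjusted p under 0.05, 5 were lower and 0 higher, against 5.48% and 15% of all genes. The median was -0.58, and -0.52 with DL.reuteri 3. With control 8 and DL.reuteri 2 also left out it was -0.37. Nr4a1, an orphan nuclear receptor induced within minutes of many signals, had 6.42 FPKM in DL.reuteri 3 and 0.855 to 10.4 (median 2.63) in the others, against 4.87 to 30.5 (median 12.7) in control libraries, with overlap, and was lower by 1.77 on the log2 scale (adjusted p = 0.0445, held in 3 of 15 fits). Jund, of the AP-1 family, differed by -1.07 (adjusted p = 0.0527), and Btg2, an antiproliferative early gene, by -0.96 (adjusted p = 0.121). Of 18 chemokines and feedback genes of NF-kB 0 were called. At an unadjusted p under 0.05, 3 lay lower and 0 higher, against 5.48% and 15% of all genes. Their median was -0.19 without DL.reuteri 3 and -0.32 with it. Cxcl1, which attracts neutrophils, had 1.34 to 17.4 FPKM (median 7.5) in the 7 DL.reuteri libraries, against 5.33 to 44.9 (median 23.9) in control libraries, and differed by -1.24 (adjusted p = 0.165). Il17rb, a receptor of the interleukin 17 family, had 1.65 to 7.62 FPKM (median 3.14) in the 7 DL.reuteri libraries, against 5.83 to 25.2 (median 8.87) in control libraries, and was lower by 1.26 (adjusted p = 0.0433, held in 3 of 15 fits). Nr4a1, Jund, Btg2, Cxcl1 and Il17rb differed by -1.67, -1.04, -1.01, -1.33 and -1.24 over all 16 libraries (adjusted p from 0.131 to 0.311).

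Further genes that fell with little overlap were Pdlim1, an actin-binding adaptor, Gchfr, which restrains tetrahydrobiopterin synthesis, and Map1lc3a, of the autophagosome membrane. Pdlim1 had 8.33 to 16 FPKM (median 14.0) in the 7 DL.reuteri libraries and 4.71 in DL.reuteri 3, against 16 to 34.1 (median 23.7) in control libraries. Gchfr had 46.0 to 62.3 FPKM (median 59.9) there and 9.24 in DL.reuteri 3, against 77.5 to 90.0 (median 86.0) in control libraries. Map1lc3a had 11.9 to 22.1 FPKM (median 16.2) there and 5.45 in DL.reuteri 3, against 22.2 to 32.5 (median 25.1) in control libraries. Their differences were -0.88, -0.56 and -0.68 (adjusted p = 0.0292, 0.0219 and 0.0267, held in 11, 14 and 10 of 15 fits), and in all 3 genes every DL.reuteri library lay below every control library. Asap3 and Zfp385a, a regulator of small GTPases and a zinc finger protein, were lower by 0.85 and 0.91 (both held in 8 of 15 fits). Pdlim1, Gchfr, Map1lc3a, Asap3 and Zfp385a differed by -1.03, -0.87, -0.86, -0.87 and -0.97 over all 16 libraries (adjusted p from 0.0829 to 0.311).

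Markers of other cell types gave 0 calls. The summed FPKM of 14 hepatocyte markers ran from 59950 to 96076 in the 7 DL.reuteri libraries and was 13539 in DL.reuteri 3, against 50294 to 95288 in control libraries, and the median difference of these markers was -0.00 without DL.reuteri 3 and -0.33 with it. The 12 markers of Kupffer cells and macrophages summed to 283 to 887 FPKM in the 7 DL.reuteri libraries, against 346 to 843 in control libraries. The 14 markers of T and NK cells in the table summed to 25.7 to 52.3 FPKM in these 7, against 26.2 to 39.3 in control libraries. Stellate cell and matrix markers summed to 60.5 to 106 FPKM in the 7 DL.reuteri libraries, against 79.5 to 208 in control libraries. Of the 10 of these genes that were tested 3 were lower and 0 higher at an unadjusted p under 0.05, against 5.48% and 15% of all genes. Acta2 stood at -0.80 (adjusted p = 0.108) and Col1a1 at -0.96 (adjusted p = 0.18), and Col1a2 was listed at 0 in all libraries. Erythroid markers summed to 559 to 1306 FPKM in the 7 DL.reuteri libraries and to 4118 in DL.reuteri 3, against 696 to 3697 in control libraries. Neutrophil markers summed to 5.85 to 40.9 FPKM in the 7 DL.reuteri libraries, against 5.03 to 11.2 in control libraries. S100a8, one of the 2 neutrophil genes tested, differed by 1.04 (adjusted p = 0.211). Of 8 pancreatic markers 6 were listed at 0 in every library of the comparison, Prss1, Amy2a3, Pnlip, Ins1, Ins2 and Gcg. The part of these cells in the results above was not tested. Acta2, Col1a1 and S100a8 differed by -0.84, -0.94 and 0.85 over all 16 libraries (adjusted p from 0.246 to 0.489).

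**Figure D5:**
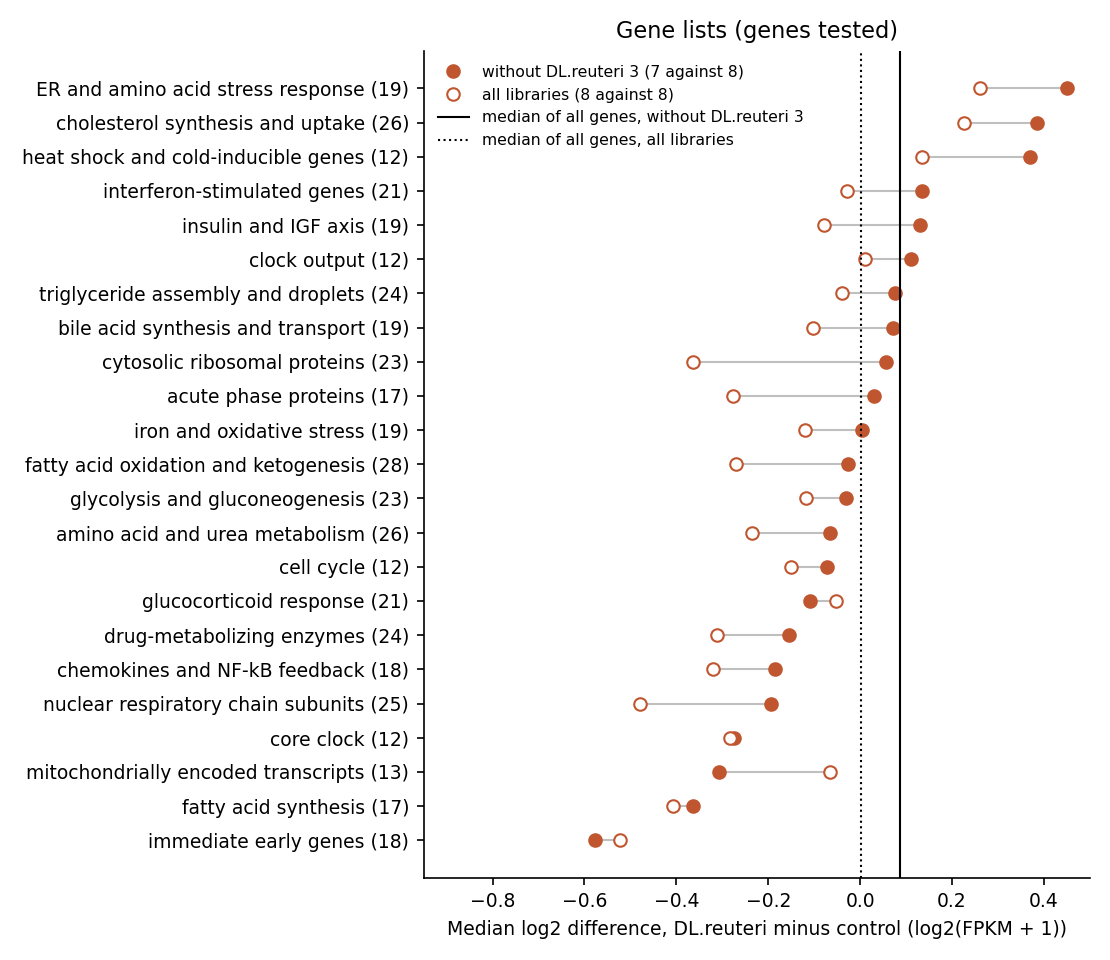
Each row is 1 of 23 gene lists, with the number of genes tested, and shows the median log2 difference of DL.reuteri minus control rats (x axis) without DL.reuteri 3 (filled) and with all 16 libraries (open). The black lines give the median of all genes, 0.09 without DL.reuteri 3 (solid) and 0.003 with it (dotted). The ER stress, cholesterol and heat shock lists stand at 0.45, 0.39 and 0.37, and immediate early genes at -0.58.

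The function lists not yet described had 0 calls. The 12 clock output genes had a median of 0.11 without DL.reuteri 3 and 0.01 with it. Interferon-stimulated genes had a median of 0.13, and -0.03 with DL.reuteri 3, with 0 of 21 genes at an unadjusted p under 0.05. Cytosolic ribosomal proteins had a median of 0.06 without DL.reuteri 3 and -0.36 with it, and acute phase proteins 0.03 and -0.28. Glycolysis and gluconeogenesis, amino acid and urea metabolism, the glucocorticoid response and the cell cycle had medians between -0.11 and -0.03 without DL.reuteri 3 and between -0.23 and -0.05 with it.

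Darkness rats differed little in median from control rats in the genes called higher. Between darkness and control rats 0 genes passed the test, with 45 higher and 273 lower at an unadjusted p under 0.05. The comparisons share the control or the DL.reuteri libraries, so the values are given side by side and not as support. The 152 genes higher in DL.reuteri rats had a median difference of 0.003 between darkness and control rats and of 0.62 between DL.reuteri and darkness rats, and the 67 lower genes had -0.13 and -0.52. Over all genes these medians were -0.07 and 0.16, and 1085 genes were higher and 146 lower in DL.reuteri than in darkness rats at an adjusted p under 0.05, without DL.reuteri 3. Hmgcs1 had a median of 74.6 FPKM in darkness rats, Idi1 19.3, Cyp7a1 30.3 and Fabp5 57.0, next to control medians of 85.7, 27.6, 30.1 and 73.9. Cyp8b1 and Ptpn9, at darkness medians of 95.7 and 4.25 FPKM, lay above the control medians of 69.7 and 1.85. Abcg5, Abcg8 and Nr4a1 differed by -0.52, -0.50 and -1.16 on the log2 scale between darkness and control rats (unadjusted p = 0.0982, 0.0454 and 0.0232), and none of these passed adjustment.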

How the data were processed

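The study's authors sequenced liver RNA on an Illumina instrument, mapped the reads with HISAT2 2.0.4 to Rnor_6.0 and deposited FPKM per gene, 1 column per rat. FPKM keep no counts, so no count test or counting interval was used, and the depth was read only as relative steps. DL.reuteri and control columns were compared on log2(FPKM + 1) with limma 3.58.1 (trend, R 4.3.3) for genes of at least 0.5 FPKM in 8 libraries, with Benjamini-Hochberg adjustment, and single genes with an exact two-sided permutation test. limma was tested on simulated data first. Each fit was repeated without DL.reuteri 3 and without each further library. Other pseudocounts, filters, scalings, weights and covariates were tried as alternatives.

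The members and the 23 function and 12 cell type lists were chosen with earlier results of these data known. Named genes were the 10 smallest p in each direction with 16 libraries, the 5 smallest without DL.reuteri 3, up to 3 per list, and up to 10 called in each direction. Further genes were named after their values were seen: Sqle, Lss, Cyp51, Insig1, Abcg5, Hsp90b1, Hspa5, Dnajc3, Ero1l, Ficd, Sel1l, Npas2, Per3, Per2, Klb, Npc1, Lepr, Osbp, Gpt2, Ndufb2, Atp5i, Il17rb, Fbxl5, Dnajb1, Hsph1, Cyp2c11, Cyp3a2, Btg2 and Acacb. A few named genes are not reported here. Motifs were searched in RefSeq promoters of GRCr8.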

Additional observations from a re-analysis of the deposited data

Results flagged for a closer look

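Single libraries stood far from the rest of their group in 36 measures. Each has a gap to the nearest library beyond Dixon's 95% critical value for 8 samples, which chance gives in about 1 in 20 groups. DL.reuteri 3 accounted for 18 of the 36, and this count was not set against the number chance would give over all measures screened. Its summed FPKM of 989114, its 13901 genes above 0 and its hepatocyte marker mean of 8.59 stood apart. It was low among DL.reuteri libraries in Trpm7 (4.09 FPKM), Tmem86b (14.3 FPKM), Gchfr (9.24 FPKM), Mtmr6 (2.43 FPKM), Stx12 (2.43 FPKM) and Smc6 (6.91 FPKM). It was also low in Ndufs8 (10.2 FPKM), Ndufb2 (12.2 FPKM), Atp5i (23.6 FPKM), Gsta2 (60.5 FPKM), Cideb (30.9 FPKM), Fth1 (175 FPKM) and Fbxl5 (2.55 FPKM). It was high in Abcg5 (5.02 FPKM) and in Chac1 (39.2 FPKM), which encodes an enzyme that breaks down glutathione.

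Among the other DL.reuteri libraries, DL.reuteri 2 was high in adipocyte markers (mean 3.89 on the log2 scale), DL.reuteri 4 in Pnpla3 (51.3 FPKM) and DL.reuteri 1 in Cdkn1a (13.4 FPKM), an inhibitor of the cell cycle.

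Among control libraries, control 3 was high in Cyp2c13 (8.12 FPKM), Cyp2c11 (7.54 FPKM), Cyp3a2 (8.54 FPKM), Dbp (1.76 FPKM), Per3 (2.42 FPKM) and Pik3r1 (10.96 FPKM). Control 8 was high in adipocyte markers (mean 4.55 on the log2 scale), Tnfaip3 (10.2 FPKM) and Col1a1 (25.1 FPKM). Control 4 was high in Asap3 (9.16 FPKM), Ccdc141 (3.49 FPKM) and Jund (169 FPKM). Control 1 was high in Acacb (31.5 FPKM), control 6 in Lbp (74.8 FPKM), which binds bacterial lipopolysaccharide, and control 5 was low in Lpin2 (2.17 FPKM).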

How the results depend on the processing

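Leaving out 1 of the 16 libraries gave 0 to 152 higher and 0 to 67 lower genes, and 479 to 1762 higher and 535 to 782 lower at an unadjusted p under 0.05. The highest counts of calls were those without DL.reuteri 3. Without DL.reuteri 3 and 1 further library the calls ran from 3 to 514 higher and from 0 to 154 lower. With 16 libraries, the calls were 749 higher and 211 lower with array weights, 169 and 497 with a library term, 184 and 178 with the mitochondrial share as a covariate, 29 and 7 after rescaling to non-mitochondrial FPKM, which moved the median of all genes to 0.14, 16 and 39 after median-ratio rescaling, and 5 and 12 with the 3 groups in 1 fit. They were 16 and 14 when control 8 and both DL.reuteri 2 and 3 were left out, and 0 higher with no filter on low FPKM. At an unadjusted p under 0.05 the higher genes were 1822 after non-mitochondrial rescaling, 2200 with array weights, 1501 without those 3 libraries and 1439 with the covariate, and the lower genes 1451 with the library term and 1202 with the covariate. Without DL.reuteri 3, the calls were 796 and 223 with array weights, 1 and 22 with the library term, 877 and 362 with the covariate, 87 and 169 after median-ratio rescaling, and 16 and 14 without control 8 and DL.reuteri 2. These alternatives without DL.reuteri 3, other than median-ratio rescaling, and the covariate were chosen after seeing the data. The fits with the library term also used ordinary t-tests in place of moderated ones. The cause of these shifts was not tested. With the replicate number as a block, 0 genes were higher with 16 libraries, and 7 were higher and 2 lower without DL.reuteri 3. Same-numbered rats correlated between -0.40 and 0.37. These values do not show that the numbers pair the samples. They also cannot show whether an order or batch is shared along the numbers, which was not tested. The difference of Per2 was -0.16 with 16 libraries, ran from -0.44 to 0.061 with 1 library left out, and was 0.030 without control 8 and DL.reuteri 2, 0.19 when DL.reuteri 3 was dropped as well, and 0.51 with array weights.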
